A study of Homo sapiens with 14 samples.

Results

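Ribosome profiling libraries of the CFTR construct labelled High-abc (5 libraries) were compared with libraries of the construct labelled WT (5 libraries) over the whole reading frame. These 10 libraries, chosen by their titles, are 10 of the 14 in the series. All came from HEK293, an immortalized human embryonic kidney line, in which the construct was overexpressed. The WT group carried CFTR_WT and the High-abc group carried CFTR_High-abc, a version with other synonymous codons; no drug, time or further allele is named for either. Which codons High-abc replaces is not listed in the labels, except that the series also holds a High-abc construct with the native codon of Leu558 put back, so that codon is among them. The other constructs (2 libraries each) are High-Leu558, in which only the Leu558 codon was changed from UUA to CUC, and that High-abc construct with the native Leu558 codon. Footprints were made with RNase I, and the deposited files give the number of reads that the authors assigned to each CFTR residue. Whether the replicates were grown as separate cultures is not stated; the p-values therefore rest on the spread from library to library, which may be technical alone.

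CFTR is the chloride and bicarbonate channel of epithelia that is mutated in cystic fibrosis. It belongs to the ABC transporters and is built, from the N-terminus on, of a first membrane domain, a first nucleotide-binding domain (NBD1), a regulatory region, a second membrane domain and a second nucleotide-binding domain (NBD2). Synonymous codons encode the same amino acid but are read by different tRNAs or by different pairing with one tRNA, so a ribosome can spend more or less time on them; UUA is one of the less used leucine codons of human genes. In ribosome profiling a residue where ribosomes spend longer collects more footprints, and NBD1 is known for folding while it is still being made. The endogenous CFTR gene lies on chromosome 7, from 117480025 to 117668665 (GRCh38.p14); the constructs are copies expressed from elsewhere, and positions here are residues of the protein.

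The 10 libraries held between 2463 and 32630 CFTR reads, with a median of 5816, or 1.66 to 22.0 reads per residue. WT replicate 2 was the deepest and High-abc replicate 3 the shallowest. Between 775 and 1337 of the 1480 residues had a read. A residue with 0 reads still allows a share of up to 0.00919% of reads at the greatest depth and 0.122% at the lowest. WT and High-abc libraries with the same number resembled each other, so values are given below in the order of replicates 1 to 5.

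Along most of the frame the footprint profiles of WT and High-abc ran together. The highest peak of both constructs was residue 1308, in the NBD2 region. It held 3.67%, 1.87%, 1.28%, 3.30% and 2.23% of reads in the WT libraries and 3.73%, 1.88%, 1.87%, 3.46% and 2.84% in the High-abc libraries. The groups overlap, and within each number the High-abc library was the higher (log2 change 0.20, SE 0.36, adjusted p in edgeR = 0.999). The second peak, residue 948 of the second membrane domain, held 1.32%, 2.93%, 2.61%, 1.24% and 1.42% in WT against 1.26%, 2.19%, 2.60%, 1.23% and 1.79% in High-abc, again the same libraries high in both groups. Libraries numbered 2 and 3 were thus the lowest at residue 1308 and the highest at residue 948 in both constructs. The 10 most occupied residues held 11.9% of reads in WT, against 12.3% in High-abc; 8 of the 10 were common to both lists, as were 41 of the top 50. Of the 12 residues on either list of 10, 11 had log2 changes between -0.28 and 0.46 with edgeR adjusted p near 1, and the exception was Leu558.

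**Figure D1:**
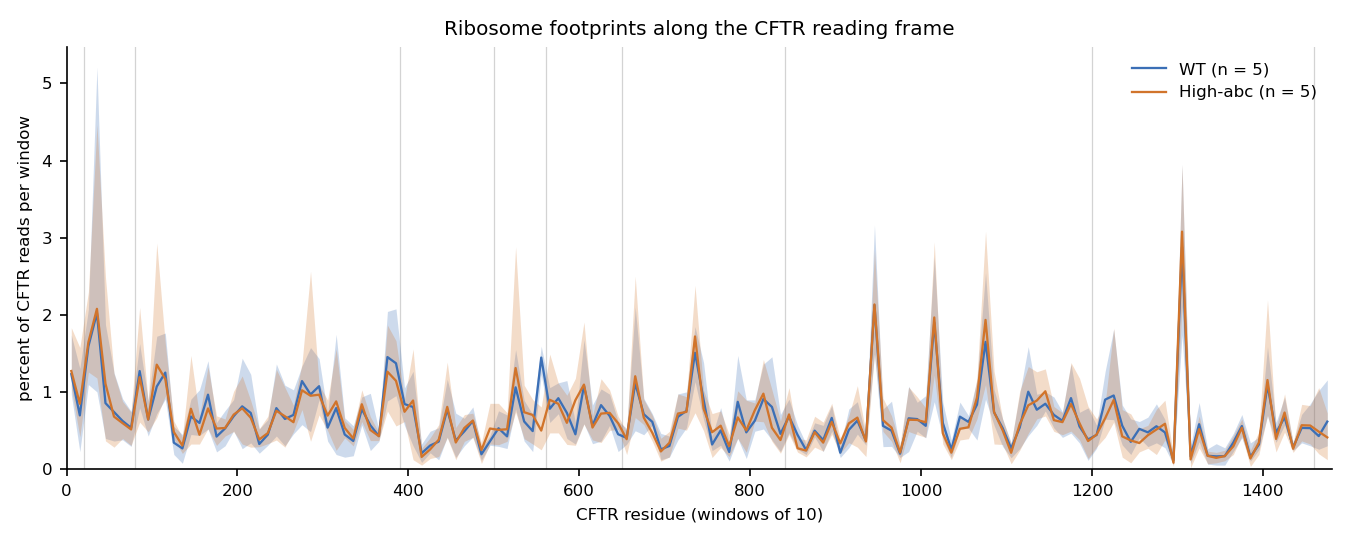
Percent of CFTR reads (y axis) in consecutive windows of 10 residues along the protein (x axis) in WT and High-abc; lines are means of 5 libraries, bands run from the lowest to the highest library, and grey lines mark the region boundaries. The lines lie close together in most windows. Near Leu558 the WT peak of 1.45% drops to 0.499% in High-abc. In the window from 591 to 600 the mean is 0.451% in WT and 0.894% in High-abc.

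Changes per residue were tested with edgeR's quasi-likelihood test over the whole frame. The filter on low counts left 325 of the 1480 residues (22.0%), with 65.7% of the reads of the 10 libraries. High-abc differed from WT at 2 of the 325 residues (0.615%), both lower in High-abc and both in NBD1; none was higher at an adjusted p of 0.05, and 16 (4.92%) had an unadjusted p under 0.05. Leu558 held 1.26%, 0.922%, 0.944%, 0.552% and 0.617% of reads in WT, against 0.0180%, 0.0514%, 0.0406%, 0.0186% and 0.0200% in High-abc. The 2 groups lay far apart, and Leu558 went from rank 7 of all residues to rank 839. The log2 change was -4.88 (SE 0.64, adjusted p in edgeR = 1.95e-07). The next residue, 559, held 0.0520%, 0.208%, 0.0756%, 0.311% and 0.291% in WT against 0.0180%, 0%, 0%, 0.0372% and 0.0399% in High-abc, without overlap. Its log2 change was -2.88 (SE 0.67, adjusted p in edgeR = 0.0116), and 9 reads in all were left at each of these residues in High-abc. How reads were placed on residues is not stated, so residue 557, Leu558 and residue 559 may belong to 1 site, which was not tested. Residue 559 no longer passed with only the WT and High-abc libraries in the fit, or without both libraries numbered 2. Of the 1461 residues with a read in these libraries, 7 (0.479%) showed no overlap between the groups: residues 4, 41, 551, 559, 564 and 698 and Leu558.

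Differences at the unadjusted threshold, most of which did not pass after adjustment, lay mainly in one stretch of NBD1. When the frame was divided into 30 consecutive blocks of 50 residues, the block from 551 to 600 held 11 of the 16 residues with an unadjusted p under 0.05, among 19 tested there. In the rest of the frame 5 of 306 tested residues (1.63%) had one. The median size of the log2 change, regardless of sign, was 1.42 in that block and 0.26 outside it, and in the other 29 blocks it ran from 0.03 to 0.64. Values past 2-fold were found at 24 of the 325 residues (7.38%). Of these, 13 were among the 19 of the block, 7 lower and 6 higher in High-abc, and 11 among the 306 outside. Tested residues were about as well covered inside the block as outside, with medians of 106 and 112 reads over the 10 libraries. The blocks were laid after the data were seen, and only Leu558 and residue 559 passed after adjustment over all residues. The filter on low counts keeps a residue with enough reads in as many libraries as the smallest construct group holds. A residue can thus enter through the construct in which it is high, as residue 570 did through WT replicates 1 and 2. The counts and median sizes of tested residues carry that selection.

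**Figure D2:**
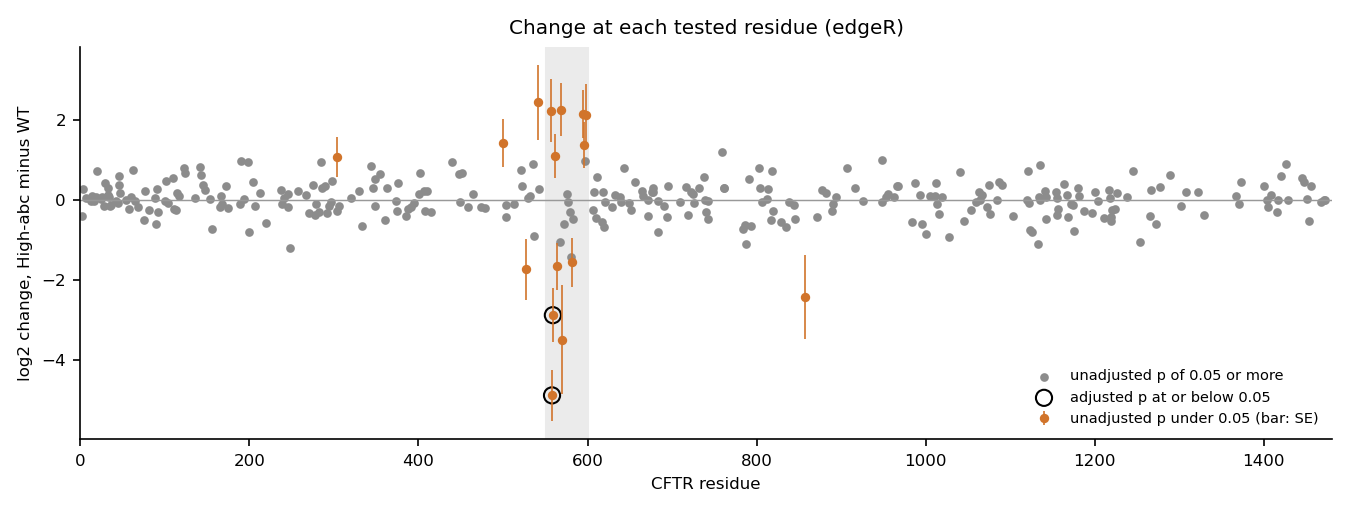
Log2 change from WT to High-abc (y axis) at each of the 325 tested residues along the protein (x axis); orange points have an unadjusted p under 0.05 with bars of 1 SE, rings mark the 2 residues that passed after adjustment, and the grey band is the block from 551 to 600. Of the 16 orange points, 11 lie in the band.

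Without any filter on low counts, 16 of 50 residues of the block (32%) had an unadjusted p under 0.05, against 34 of 1419 elsewhere (2.40%). Among residues with under 20 reads over the 10 libraries the order was the opposite, with 0 of 12 inside and 23 of 525 outside (4.38%). Among residues with at least 20 and under 200 reads over the 10 libraries the numbers were 15 of 35 inside (42.9%) and 11 of 823 outside (1.34%). Among residues with 200 reads or more they were 1 of 3 (Leu558) and 0 of 71 in this unfiltered fit; residue 303, with 98 reads in WT and 104 in High-abc, had such a p in the filtered fit. Leaving out any single library, or both libraries numbered 2, left between 8 and 12 of the 19 residues of the block with an unadjusted p under 0.05 and between 2 and 7 of the 306 elsewhere. With the replicate block the counts were 11 of 19 inside and 8 of 306 elsewhere in a fit of all libraries, and 12 of 19 and 12 of 306 with the WT and High-abc libraries alone. A minimum mean of 20 reads left 3 residues of the block to test, and the filter applied to the WT and High-abc libraries alone left 4; 1 had such a p in either case. The median size of the log2 change inside and outside the block was 0.266 and 0.193 at that minimum mean. It was 0.336 and 0.191 with that filter on the WT and High-abc libraries, and 0.864 and 0.437 without any filter.

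Inside the block, residues with more and with fewer footprints in High-abc lay side by side. Residue 557, just before Leu558, held 0.0520%, 0.0368%, 0.0378%, 0% and 0.0514% in WT against 0.0901%, 0.394%, 0.244%, 0.121% and 0.0299% in High-abc. Only High-abc replicate 5 lay within the WT range (log2 change 2.22, SE 0.78, adjusted p in edgeR = 0.355). Residue 561 held 0.0346% to 0.171% in WT against 0.110% to 0.325% in High-abc (log2 change 1.09, SE 0.54, adjusted p in edgeR = 0.970). At residue 564 the order was the opposite and the groups did not overlap. It held 0.242%, 0.110%, 0.151%, 0.242% and 0.188% in WT against 0.0541%, 0.0343%, 0.0406%, 0.0744% and 0.0599% in High-abc (log2 change -1.65, SE 0.58, adjusted p in edgeR = 0.355). Farther on, residue 569 held 0.0346%, 0.0398%, 0.113%, 0% and 0.0514% in WT against 0.198%, 0.445%, 0.0812%, 0.149% and 0.0898% in High-abc. The WT library with the highest value there, replicate 3, overlapped with the lower High-abc libraries (log2 change 2.24, SE 0.66, adjusted p in edgeR = 0.103). The next residue, 570, had reads in WT replicates 1 and 2 alone (0.260% and 0.199%) and in High-abc replicate 4 alone (0.0279%, 3 reads), and it passed after adjustment only without a filter.

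The end of the block held several residues with more footprints in High-abc. Residue 595 held 0.104%, 0.0490%, 0.0378%, 0.0173% and 0.0514% in WT against 0.343%, 0.0857%, 0.0812%, 0.400% and 0.200% in High-abc. High-abc was higher in each of the 5 numbers, although its replicates 2 and 3 lay below WT replicate 1 (log2 change 2.13, SE 0.60, adjusted p in edgeR = 0.0817). Residue 596 held 0.0398% to 0.137% in WT against 0.126% to 0.244% in High-abc, and residue 598 held 0% to 0.0644% in WT against 0% to 0.203% in High-abc; their edgeR adjusted p were 0.572 and 0.439. Residue 582 ran the other way, with 0.0346%, 0.184%, 0.189%, 0.207% and 0.257% in WT against 0.0901%, 0.0514%, 0%, 0.0930% and 0.0200% in High-abc (log2 change -1.56, SE 0.62, adjusted p in edgeR = 0.457). A fit of all libraries that also blocked on replicate number had residues 569 and 595 past the threshold too (4 residues in all). With that block in the WT and High-abc libraries alone, 2 passed, Leu558 and residue 559. Residues 569 and 595 also passed without High-abc replicate 3, residue 595 without High-abc replicate 2, and residue 598 without both libraries numbered 2.

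**Figure D3:**
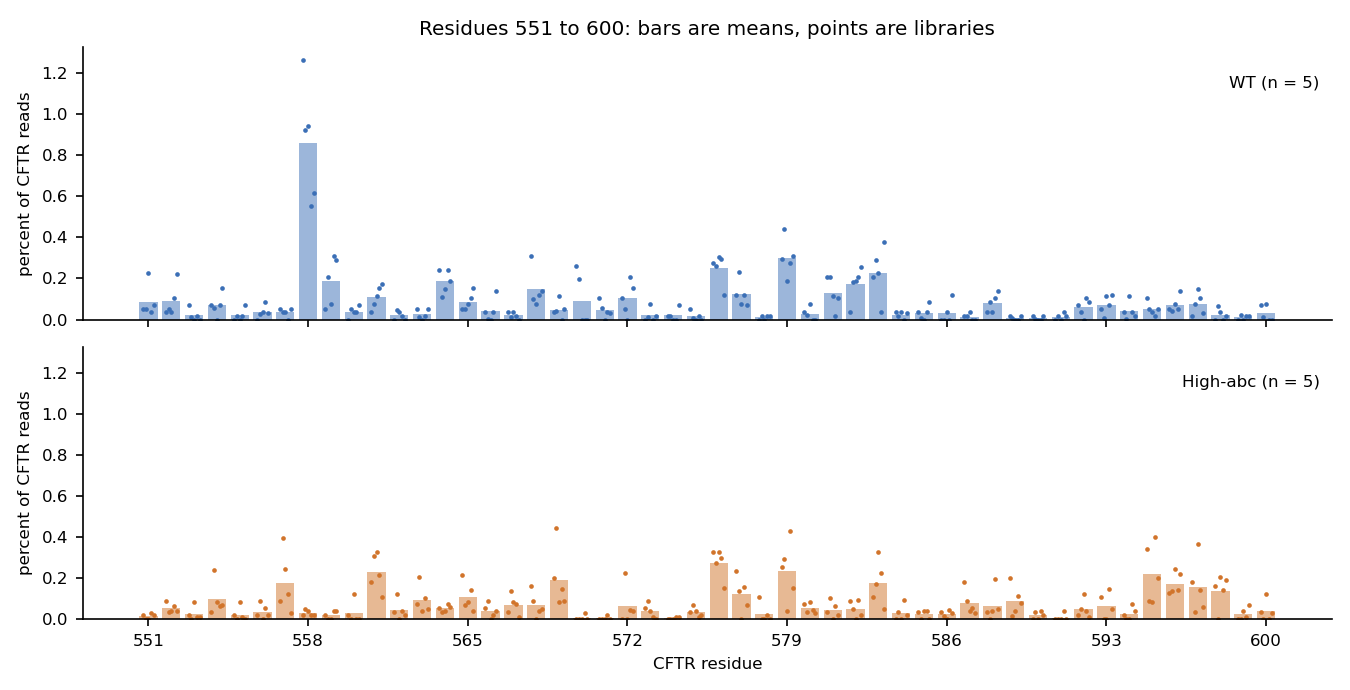
Percent of CFTR reads (y axis) at each residue from 551 to 600 (x axis) in WT (upper panel) and High-abc (lower panel); bars are means of 5 libraries and points are single libraries. The WT peak at Leu558, with a mean of 0.860%, stands at 0.0297% in High-abc, where bars near residues 557, 561, 569, 595, 596 and 598 are taller than in WT.

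Just upstream of the block, 3 more residues had an unadjusted p under 0.05: residues 500 and 541 were higher in High-abc and residue 527 lower (adjusted p in edgeR = 0.572, 0.457 and 0.572). The block from 451 to 500 thus held 1 of 6 tested residues with such a p, and that from 501 to 550 held 2 of 12. The last 2 in the frame were residue 303 of the first membrane domain and residue 857 of the second. Residue 303 held 0.0856% to 0.211% in WT against 0.180% to 0.463% in High-abc, and residue 857 held 0.0173% to 0.291% in WT against 0% to 0.0406% in High-abc (adjusted p in edgeR = 0.749 and 0.572).

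The 4 libraries of the other constructs were read at the same positions; they are not part of the contrast that chose these residues, but entered the filter and the estimate of the spread. The construct High-abc with the native Leu558 codon shares the High-abc sequence elsewhere, and High-Leu558 shares the WT sequence elsewhere; the pair has no library in common with WT and High-abc. Between 500 and 600, a range drawn around the residues with an unadjusted p under 0.05, 12 had one besides Leu558 and 559. Of these, 10 differed in the same direction between these constructs, and at all 10 the 2 libraries of one construct lay on one side of the 2 of the other. The exceptions were residues 500 and 596. Residue 303 ran in the opposite direction there, and residue 857 in the same direction with overlap. Among the 309 tested residues without an unadjusted p under 0.05, 142 (46.0%) ran in the same direction and 59 of these did so without overlap. At residue 569, for example, High-Leu558 held 0.00932% and 0.0197% of reads and the High-abc construct with the native Leu558 codon held 0.189% and 0.159%. At residue 582 they held 0.214% and 0.187% against 0.0573% and 0.0289%. At residue 557 High-Leu558 had 0 reads in both libraries, against 0.109% and 0.0724%. Groups of 2 libraries are too small for a test of one residue, and these pairs of constructs also differ at Leu558 itself, so no p is given.

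**Figure D4:**
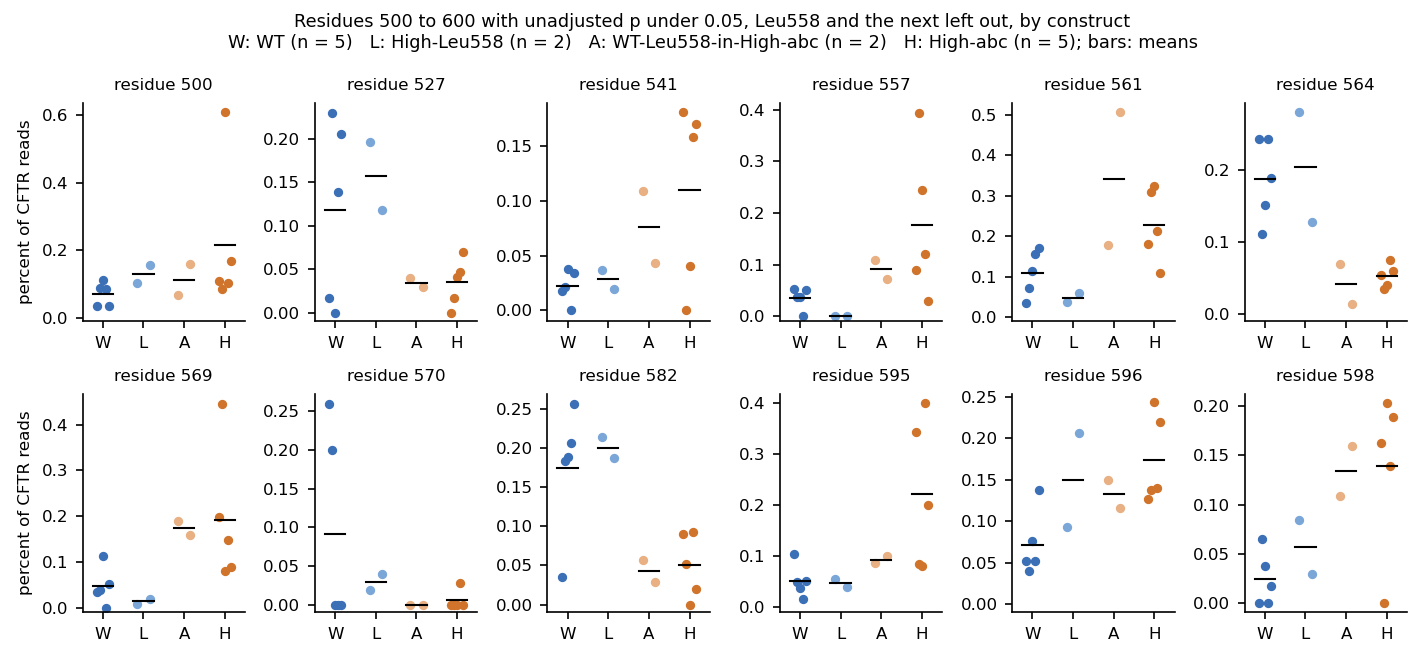
Percent of CFTR reads (y axis, 0 at the bottom, own scale in each panel) at the 12 residues between 500 and 600, Leu558 and 559 left out, with an unadjusted p under 0.05; points are libraries of WT (W), High-Leu558 (L), High-abc with the native Leu558 codon (A) and High-abc (H), and bars are means. At 10 of the 12 residues A differs from L in the direction in which H differs from W.

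How far the profiles of the constructs differed inside each region was then measured as a distance between libraries, the share of the region's reads that would have to be moved to turn one profile into the other. In the NBD1 alpha-subdomain region (501 to 560), which holds Leu558, the distance was 0.476 between libraries of different constructs and 0.380 between libraries of the same construct. That gap of 0.0957 gave a one-sided exact permutation p of 0.00794 (n = 5 against 5), the smallest possible, and 0.0794 after Benjamini-Hochberg adjustment over 10 regions. A single region cannot pass that adjustment at this number of libraries. Without Leu558 and residue 559 the gap in this region was 0.0118 (exact permutation p = 0.246). The last part of NBD1 (561 to 650) had a gap of 0.0183 (exact permutation p = 0.103), and 0.0514 with Spearman's distance (p = 0.0317 by the same permutation test, adjusted p = 0.159). In the other 8 regions libraries of different constructs were on average closer to each other than libraries of one construct, with gaps from -0.0319 to -0.0121, a mean that includes libraries with the same number. Over libraries with different numbers alone, and relabelled within numbers, the gap was 0.106 in the alpha-subdomain region, 0.0266 in the last part of NBD1 and 0.0106 in the regulatory region, each with an exact permutation p of 0.0625, the smallest possible (0.208 after adjustment). By that measure it was 0.00337 in the N-terminal region and between -0.00871 and -0.00118 in the remaining 6. This test was added after the data were seen.

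Shares were then summed over the block and over the 30 residues on either side of Leu558 and residue 559. With these 2 residues set aside, no exact permutation p of these stretches was under 0.05 with all WT and High-abc libraries. A shorter stretch without them, residues 591 to 600, passed in edgeR under some settings, as given below. The block from 551 to 600 held 4.66%, 4.35%, 4.00%, 3.73% and 4.90% of reads in WT, against 4.15%, 4.23%, 3.53%, 4.41% and 2.38% in High-abc, with overlap (difference -0.59 percentage points, exact permutation p = 0.222, n = 5 against 5). Leu558 and residue 559 together held 1.05% ± 0.183 (WT) against 0.0487% ± 0.0101 (High-abc; SD, n = 5 each). The other 48 residues of the block held 3.28% ± 0.440 (WT) against 3.69% ± 0.834 (High-abc; mean and SD of 5 libraries, exact permutation p = 0.357), higher in High-abc in 4 of the 5 numbers. The 30 residues before Leu558 held 1.42%, 1.35%, 1.51%, 1.85% and 1.95% in WT against 2.02%, 1.71%, 2.35%, 2.57% and 1.80% in High-abc. They were higher in High-abc in 4 of 5 numbers, by 0.474 percentage points on average (exact permutation p = 0.0556, 0.111 after adjustment over 4 values). The 30 residues from 560 on held 2.46% ± 0.368 and 2.35% ± 0.800 (SD, n = 5 each; exact permutation p = 0.802).

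In windows of 10 residues, 1 of 148 (0.676%) passed in edgeR, residues 551 to 560, lower in High-abc; 3.38% had an unadjusted p under 0.05. This window held 1.59%, 1.44%, 1.40%, 1.23% and 1.58% in WT against 0.343%, 0.805%, 0.690%, 0.409% and 0.250% in High-abc, the only window without overlap. The log2 change was -1.54 (SE 0.33, adjusted p in edgeR = 0.0253). Its 8 residues other than Leu558 and 559 held 0.398% ± 0.156 (WT) against 0.451% ± 0.240 (High-abc; mean and SD of 5 libraries, exact permutation p = 0.778). The window from 591 to 600 held 0.398%, 0.325%, 0.604%, 0.431% and 0.497% in WT against 0.992%, 0.308%, 1.18%, 1.12% and 0.868% in High-abc. High-abc replicate 2 lay below all WT libraries and the other High-abc libraries above them (log2 change 1.01, SE 0.29, adjusted p in edgeR = 0.168); without that library, and with the replicate block in all libraries, this window passed. The call of the window from 551 to 560 was lost with only the WT and High-abc libraries in the fit, with windows of 20 residues or windows shifted by 5, and without WT replicate 1, 2 or 5 or High-abc replicate 1, 4 or 5. With the replicate block in all libraries, 12 of the 148 windows had an unadjusted p under 0.05. With that block in the WT and High-abc libraries alone, 15 had one. The window from 901 to 910 was higher in High-abc in 5 of 5 numbers (adjusted p in edgeR without that block = 0.879). The window from 1251 to 1260 was lower in 5 of 5 and that from 851 to 860 in 4 (adjusted p in edgeR without that block = 0.999 for both). For 119 of the 148 windows the 95% interval of the change lay within 2-fold in either direction, and for 147 within 4-fold; at single residues this held for 8 and 257 of 325. At the tested residues without an interval inside 2-fold, a change of more than 2-fold is not excluded. At those without one inside 4-fold, neither is a change of more than 4-fold.

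Over the 10 regions of the frame no share differed beyond the spread between libraries, compared without pairing. Exact permutation p (two-sided, n = 5 against 5, where the smallest possible is 0.00794) ran from 0.286 to 0.992, and each was 0.992 after Benjamini-Hochberg adjustment. A single region could not pass that adjustment at this number of libraries. Sign flips within numbers gave an exact p of 0.0625 in the last 20 residues, and 0.3125 or more in the other regions. The NBD1 alpha-subdomain region held 4.57% ± 0.498 of reads in WT, against 4.27% ± 1.36 in High-abc (SD, n = 5 each); with Leu558 and residue 559 left out, High-abc was the higher, by 0.668 percentage points. The first membrane domain held 23.1% ± 1.12 of reads in WT, against 22.9% ± 2.29 in High-abc, and the second 24.3% ± 1.80 and 24.4% ± 2.18 (SD, n = 5 each). The regulatory region held 12.4% ± 0.728 and 12.4% ± 0.822, and the NBD2 and C-terminal region 14.4% ± 2.35 and 14.0% ± 1.94 (SD, n = 5 each). In this last region both libraries numbered 2 were the lowest of their group, with 10.6% each.

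The first 20 residues, where ribosomes have just left the start codon, held 1.73%, 2.47%, 1.96%, 1.76% and 1.71% of reads in WT, against 2.02%, 3.41%, 1.54%, 1.50% and 2.13% in High-abc. High-abc replicate 2 was the highest of all and replicates 3 and 4 the lowest, so the groups overlap (exact permutation p = 0.722, n = 5 against 5). Without that library High-abc lay 0.131 percentage points below WT instead of 0.192 above. Residue 1 had no read in any library. The most occupied residues of this stretch were 7, 3 and 2. Residue 7 held 0.242%, 0.601%, 0.340%, 0.500% and 0.428% in WT against 0.306%, 0.651%, 0.203%, 0.409% and 0.519% in High-abc. The log2 changes of residues 7, 3 and 2 were 0.05, 0.26 and -0.40 with SE from 0.48 to 0.50 (edgeR adjusted p near 1). Of the first 20 residues, 9 had enough reads for that test. Residue 4, too sparse for edgeR, showed no overlap, with 0% to 0.0378% in WT (13 reads) and 0.0406% to 0.137% in High-abc (25 reads).

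The last 20 residues, up to the stop codon, held 0.710%, 0.726%, 1.32%, 1.45% and 1.01% of reads in WT, against 0.559%, 0.668%, 1.18%, 1.19% and 0.888% in High-abc. The groups overlap (exact permutation p = 0.476, n = 5 against 5), but High-abc was lower than the WT library of the same number in 5 of 5. The difference was -0.147 percentage points, and sign flips within numbers gave an exact p of 0.0625, the smallest that 5 pairs allow; 10 regions were compared. The last 10 residues (1471 to 1480) were lower in High-abc in 5 of 5 numbers (0.616% ± 0.342 in WT, 0.411% ± 0.272 in High-abc, mean and SD of 5; log2 change -0.49, SE 0.37, adjusted p in edgeR = 0.999). The 10 residues before them were lower in 2 and higher in 3. The most occupied residues of this end, 1472, 1473 and 1468, had log2 changes between -0.05 and 0.00. Only these 3 of the last 20 residues had enough reads for the edgeR test.

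**Figure D5:**
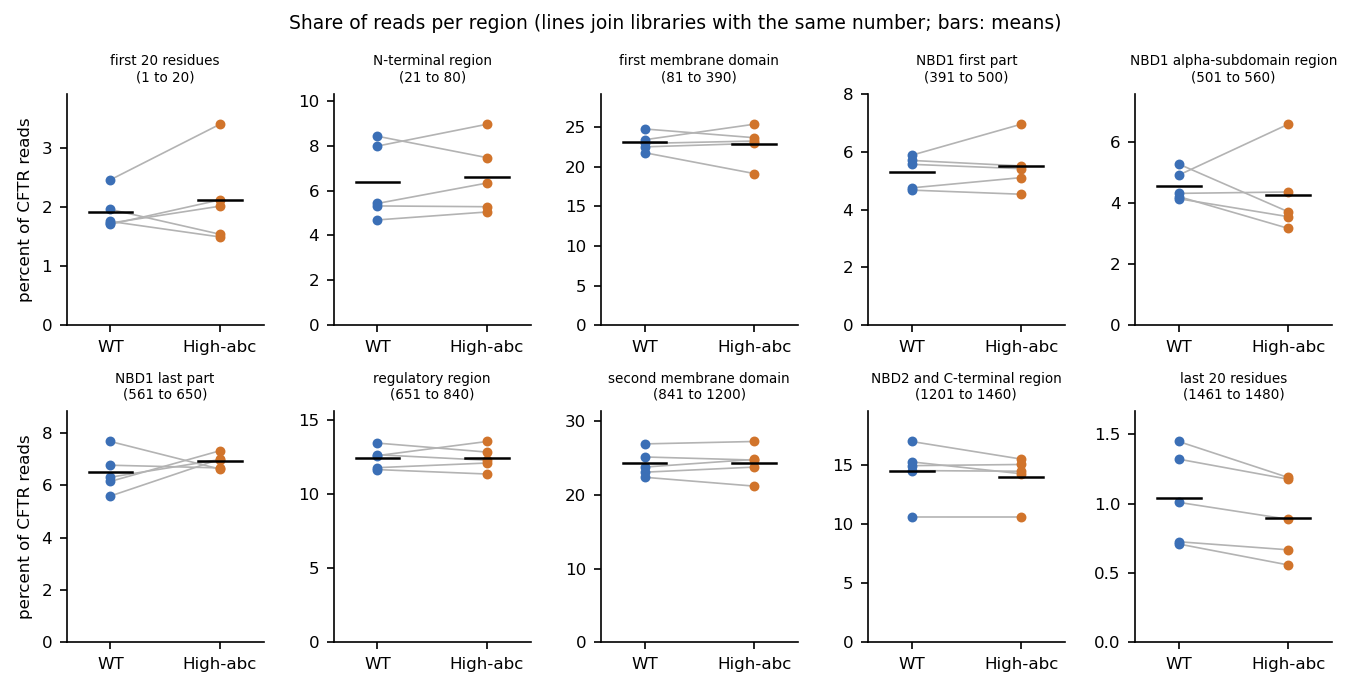
Percent of CFTR reads (y axis, from 0, own scale in each panel) in each of 10 regions for WT and High-abc; points are libraries, grey lines join libraries with the same number and black bars are means. The groups overlap in every panel, and in the last 20 residues all 5 lines go down, from a mean of 1.04% to 0.897%.

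The broad shape of the profile did not differ beyond the spread between libraries. The reads reached 25% of their total at residue 308 ± 22.4 in WT against 306 ± 54.3 in High-abc, 50% at residue 687 ± 40.4 and 684 ± 44.2, and 75% at residue 1067 ± 33.4 and 1059 ± 30.9 (SD, n = 5 each). A balance of reads between the frame's start (-1) and end (1) was -0.0629 ± 0.0392 (WT) against -0.0718 ± 0.0443 (High-abc; SD, n = 5 each). For these 4 values the exact permutation p ran from 0.754 to 0.929. How evenly reads were spread was measured in ways that allow for depth. The inverse Simpson number, which counts equally used residues that would give the same concentration, was 269 ± 51.2 (WT) against 257 ± 37.2 (High-abc; mean and SD of 5 libraries, exact permutation p = 0.690). At the depth of the shallowest library, 776 ± 38.8 residues in WT against 785 ± 57.3 in High-abc were expected to hold a read (SD, n = 5 each; exact permutation p = 0.770).

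Outside NBD1, 3 residues showed no overlap between the groups: residue 4 above, residue 41 (0% to 0.0171% in WT against 0.0186% to 0.0812% in High-abc, 5 and 10 reads) and residue 698 of the regulatory region (0.0306% to 0.0378% in WT against 0% to 0.0299% in High-abc, 17 and 5 reads). All 3 had too few reads for the edgeR test. They are among the 7 of 1461 residues (0.479%) without overlap given above. Random relabelling of 5 against 5 separates the libraries at a residue with a probability of up to 0.00794, so that count is no excess. Residue 551, the start of the block, held 0.0345% to 0.227% in WT (31 reads) and 0% to 0.0279% in High-abc (6 reads) and was not tested either.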

How the data were processed

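The deposited counts are whole numbers of reads per CFTR residue and library, per the file headers; the deposited percent is each count over the library's CFTR reads. It was matched by the recomputed percent within 0.0005 percentage points, so shares were computed from counts. Residues without a line were taken as 0 reads. HISAT2 and hg38 are named in the submitters' processing notes without a version or role; for the mapped sequence, the read lengths and the assignment of reads to residues, no statement is given in these sources. No molecular identifiers are mentioned, so limits from counts cover counting error only.

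For residues and windows, edgeR 4.0.16 was used in R 4.3.3 with limma 3.58.1: filterByExpr, TMM, quasi-likelihood, all 14 libraries, group as the model term, the contrast High-abc minus WT, and Benjamini-Hochberg adjustment at 0.05. SE is the log2 change over the square root of F. Beyond counting error, the coefficient of variation within groups was 53.4% (residues) and 31.8% (windows). Values per library were tested by exact permutation of the 252 relabellings in Python 3.11.15 (numpy 2.4.6, pandas 2.3.3, scipy 1.17.1; figures with matplotlib 3.10.9). Region ends are rounded and only approximate the domains. The scripts behind the tests were tested on simulated data. Alternatives included DESeq2 1.42.0.

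The labels do not explain the replicate numbers. For each of the 5 numbers the WT and the High-abc library deviated together from their groups' means across tested residues. Here r ran from 0.379 to 0.530 (log2 of percent plus 0.01). For the 20 other pairs it ran from -0.334 to 0.280, with a median of -0.143. Deviations from a group's mean cancel out within the group, which by itself lowers the r of the other pairs. The numbers were taken to pair the libraries, and the pairing comes from the data. The groups, residue lists and tests were chosen with earlier results of these data known. Named were residues and windows that passed, those without overlap, the 10 most occupied per group, Leu558 with 5 residues on either side, all regions and the 3 most occupied residues of each end; residues with an unadjusted p under 0.05 were added. The planned comparison by amino acid was not run, since no protein sequence was used here.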

Additional observations from a re-analysis of the deposited data

Results flagged for a closer look

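In groups of 5 libraries, 19 values of the 148 sets examined had 1 library far from the other 4. Chance flags about 1 in 20 such sets where values are normally distributed. Residues with few reads need not follow that rate, so 19 of 148 is not set against it. By depth, WT replicate 2 stood apart with 32630 reads against 2647 to 5839. In the NBD2 and C-terminal region High-abc replicate 2 held 10.6% of reads against 14.2% to 15.5%. Residue 101 of the first membrane domain was highest in replicate 2 of both groups, with 1.22% in WT (others 0.227% to 0.502%) and 2.04% in High-abc (others 0.325% to 0.688%), and residue 554 held 0.240% in High-abc replicate 2 (others 0.0361% to 0.0812%).

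WT replicate 3, the shallowest WT library, stood apart at residue 33 with 1.96% (others 0.380% to 0.585%), at residue 551 with 0.227% (others 0.0345% to 0.0685%), in the window from 1 to 10 with 1.74% (others 0.970% to 1.18%) and in the window from 1461 to 1470 with 1.02% (others 0.257% to 0.294%). High-abc replicate 3, the shallowest of all, did so at residue 500 with 0.609% (others 0.0857% to 0.170%), at residues 41, 553 and 555 with 0.0812% each, which is 2 reads, and at residue 560 with 0.122%. The other such values were 0.0693% at residue 553 in WT replicate 1, 0.0685% at residue 555 and 0.668% in the window from 551 to 560 without Leu558 and 559 in WT replicate 5, 0.397% in the window from 851 to 860 in High-abc replicate 1, and 0.0279% at residue 570 in High-abc replicate 4, where the other High-abc libraries had 0 reads.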

How the results depend on the processing

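Of 324 differences recomputed under other settings, 297 kept their direction and their side of the threshold, as did 461 of 510 recomputed without 1 library. Part of this tally was fixed in advance. Sign flips within numbers cannot pass, nor can a single region in the profile distances, so such values could only change direction. The same holds for a single region in the region shares, except where the 2 ends alone were recomputed. Of counts, 44 of 58 and 72 of 80 stayed within 1.5 times the reported one. The counts of regions that passed were 0, and with that exception a single region could not raise them. Leu558 stayed lower in High-abc and past the threshold in edgeR under every setting run. The number of residues that passed (2) was 1 at a minimum mean of 20 reads and with only the WT and High-abc libraries (own filter or the same residues), 4 with the replicate block in all libraries, 3 without a filter, and 2 to 4 without 1 library. The number of windows (1) was 0 with only those groups (both ways), with windows of 20 residues and with windows shifted by 5, 2 with the replicate block in all libraries and without both libraries numbered 2, and 0 to 2 without 1 library. The count of 11 residues in the block from 551 to 600 was 1 at a minimum mean of 20 reads and with only those groups and their own filter, where 3 and 4 residues of the block were tested. The value around Leu558 that passed (the window, 1 of 4) became 0 with the pairing (sign flips, smallest p 0.0625) and without both libraries numbered 2. In both cases there are too few relabellings for a single value of the 4 to pass after adjustment. The following differences, none past a threshold, changed sign. In percentage points, with the 15 most occupied residues left out they were 0.172 in the first and -0.00292 in the second membrane domain. Without both libraries numbered 2 they were 0.0161 in the first membrane domain and -0.0466 in the window without Leu558 and 559. Without Leu558 and 559 they were 0.668 in the alpha-subdomain region and -0.158 in the second membrane domain. With the pairing, the gap in profile distance was 0.00337 in the N-terminal and 0.0106 in the regulatory region. The share of the regulatory region gave 0.00714 outside the ends, and the residues after the pair gave 0.0227 over 15 and 0.406 over 50 residues. The residue reached by 25% of reads differed by 8.50 without both libraries numbered 2 and by 2.20 without Leu558 and 559, that reached by 50% by 1.20 without the ends, and the inverse Simpson number by 36.0 without the 15 most occupied residues. Leaving out 1 library at a time gave ranges of -0.131 to 0.347 for the first 20 residues, -0.336 to 0.763 for the N-terminal region, -0.831 to 0.726 and -0.634 to 0.880 for the first and second membrane domains, -0.174 to 0.433 for the first part of NBD1, -0.283 to 0.266 for the regulatory region and -1.45 to 0.355 for the NBD2 and C-terminal region. The ranges were -0.0236 to 0.120 for the window without Leu558 and 559, -0.289 to 0.173 for the residues after them, -0.0238 to 0.00712 for the balance of reads, -20.1 to 16.9, -15.4 to 10.2 and -22.0 to 4.00 for the residues reached by 25%, 50% and 75% of reads, -27.5 to 4.20 for the inverse Simpson number and -3.38 to 32.9 for covered residues. The causes were not tested, apart from the fewer residues tested. The fits with only those groups and the same residues, without both libraries numbered 2, the distances by region and the block from 551 to 600 were chosen after seeing the data; the comparison by amino acid was not run. Counting and the spread between libraries both limit single residues: 1 read is 0.0406% of reads in the shallowest library, and libraries of a group vary by 53.4% beyond counting error.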
